A study of Mus musculus with 8 samples.

Results

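The insulin-like growth factor (IGF) system was followed in mouse pancreatic buds through 10 genes. These are the ligands Igf1 and Igf2, the receptors Igf1r and Igf2r, and the binding proteins Igfbp2 to Igfbp7. The members were taken by symbol from probe sets that carry exactly 1 gene symbol in the platform annotation, and all 10 were measured, each by 1 probe set, among 19938 genes in all. RNA came from 4 pools, each hybridized to a first array and to a technical repeat, which gave 8 arrays of the Affymetrix mouse gene 1.0 ST design. The VEGF pool held fresh e12.5 buds of 3 embryos with Pdx1-tTA, a transactivator expressed from the promoter of the pancreatic gene Pdx1, and TET-VEGF, a transgene under its control. The control pool held buds of 3 littermates with Pdx1-tTA and no TET-VEGF, so the transactivator was present in both fresh pools. A further pair of pools came from wild-type e12.5 buds, 5 in each, explanted and cultured for 2 days with a VEGF receptor 2 inhibitor (VEGFR2i) or with vehicle.

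IGF1 and IGF2 are secreted peptides related to insulin that drive fetal growth by activating the tyrosine kinase receptor IGF1R. IGF2R lacks kinase activity and carries IGF2 to lysosomes, which removes it from the tissue. In mice Igf2 is expressed mainly from the paternal allele and Igf2r mainly from the maternal allele. IGFBP2 to IGFBP6 bind the IGFs with high affinity and thereby hold, carry or release them, while IGFBP7 binds IGFs weakly and is a secreted protein often found around vessels. In the embryonic pancreas the epithelium buds into a mesenchyme that supplies growth factors, so ligands and binding proteins need not come from the cells that carry the receptors.

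Each condition was a single pool of RNA, so no test of a condition was possible, and the SD over the 2 arrays of a pool measures hybridization error only. Values are log2 expression after robust multi-array averaging (RMA). The rule of size used here asks for a gap of 1.5-fold or more between pool means (0.585 in log2 units), with no overlap between the arrays of the pools; genes that met it are said to be higher or lower. The largest gap between the 2 arrays of a pool, over the 10 members, was 0.061 to 0.172. Brackets after a difference give its range over the 4 pairs of arrays. Pdx1, which marks pancreatic epithelium, was at 6.50 and 6.26 in VEGF buds, 7.02 and 6.90 in control buds, 8.49 and 8.37 in the explants labelled VEGFR2i and 8.46 and 8.40 in those labelled vehicle. Vegfa was at 7.67 and 7.73 in VEGF buds and 7.62 and 7.25 in control buds, short of the rule of size, and the sources used here do not say whether its probe set covers the transgene.

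The explant labels do not match the endothelial genes. Cdh5, the cadherin of endothelial junctions, was at 8.65 and 8.67 in the pool labelled VEGFR2i, against 4.73 and 4.40 in the pool labelled vehicle, although an inhibitor of the endothelial VEGF receptor would lower such genes. Pecam1, an adhesion molecule of endothelium, was at 7.84 and 7.56 against 4.35 and 4.27 in the same pools. The pools are called by their labels throughout, and the direction of a difference between them is not taken to show what the inhibitor did.

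The promoters of 5 members are shown because these genes had the largest differences described here: Igfbp3 and Igfbp4 were the members with the largest increase in the pool labelled VEGFR2i, and Igf1, Igfbp6 and Igfbp7 those higher in culture than in fresh buds. Each window runs 5′ to 3′ from 250 bases before the start of the gene to 50 after it, from RefSeq on GRCm38.p6. The windows are chr11:7213874-7214173 (minus strand) for Igfbp3, chr11:99040994-99041293 (plus strand) for Igfbp4, chr10:87860861-87861160 (plus strand) for Igf1, chr15:102143936-102144235 (plus strand) for Igfbp6 and chr5:77407996-77408295 (minus strand) for Igfbp7. Capitals mark the TATA box letters TATAAA and the GC box letters GGGCGG, each on either strand.
Igfbp3: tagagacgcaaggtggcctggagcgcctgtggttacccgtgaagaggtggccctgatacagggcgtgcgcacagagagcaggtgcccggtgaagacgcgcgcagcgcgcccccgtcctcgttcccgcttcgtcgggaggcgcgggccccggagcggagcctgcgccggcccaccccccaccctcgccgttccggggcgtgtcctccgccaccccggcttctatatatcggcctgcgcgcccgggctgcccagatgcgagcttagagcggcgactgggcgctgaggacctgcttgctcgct
Igfbp4: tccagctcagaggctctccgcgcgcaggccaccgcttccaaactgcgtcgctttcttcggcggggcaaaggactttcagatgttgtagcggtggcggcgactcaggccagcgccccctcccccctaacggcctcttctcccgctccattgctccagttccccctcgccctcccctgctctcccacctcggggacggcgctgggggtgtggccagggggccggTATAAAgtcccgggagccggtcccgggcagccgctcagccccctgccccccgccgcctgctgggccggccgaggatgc
Igf1: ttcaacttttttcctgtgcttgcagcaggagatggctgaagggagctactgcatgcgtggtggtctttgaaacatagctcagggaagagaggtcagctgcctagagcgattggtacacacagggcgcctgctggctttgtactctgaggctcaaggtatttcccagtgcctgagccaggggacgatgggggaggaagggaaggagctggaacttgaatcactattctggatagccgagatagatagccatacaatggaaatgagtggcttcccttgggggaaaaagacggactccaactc
Igfbp6: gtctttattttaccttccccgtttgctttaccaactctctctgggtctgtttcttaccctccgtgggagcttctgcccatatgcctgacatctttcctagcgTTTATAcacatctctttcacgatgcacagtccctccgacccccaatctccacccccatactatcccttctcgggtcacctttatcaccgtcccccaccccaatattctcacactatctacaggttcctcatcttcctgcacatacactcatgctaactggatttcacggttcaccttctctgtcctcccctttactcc
Igfbp7: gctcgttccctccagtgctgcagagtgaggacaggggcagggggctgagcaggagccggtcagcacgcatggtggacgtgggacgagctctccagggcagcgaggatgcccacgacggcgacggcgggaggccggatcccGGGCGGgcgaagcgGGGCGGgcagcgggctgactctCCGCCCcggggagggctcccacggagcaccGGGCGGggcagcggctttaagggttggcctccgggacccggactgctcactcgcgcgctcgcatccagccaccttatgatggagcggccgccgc

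These windows differ in base composition. The Igfbp3 window holds 37 CG pairs, that of Igfbp7 33 and that of Igfbp4 27, while the windows of Igfbp6 and Igf1 hold 8 and 6. The median over all 32851 RefSeq mouse promoter windows of the same length is 7, with quartiles of 3 and 20. TATAAA occurs in the Igfbp4 window, with its first base 28 bases before the start, and in the Igfbp6 window, where the match on the opposite strand begins 148 bases before the start. It is found in 13.6% of all windows. GGGCGG occurs 4 times in the Igfbp7 window and in 35.7% of all windows. Neither exact run of letters is in the Igfbp3 or Igf1 windows. Other forms of these boxes were not searched for, and a match is a description of the sequence only. Outside the printed windows, GGGCGG is in those of Igf1r and Igf2r, in 1 of the 2 windows of Igfbp2 and in 2 of the 4 windows of Igf2. The single Igf2 probe set is not split by start site, so its values do not say which of them was used.

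**Figure D1:**
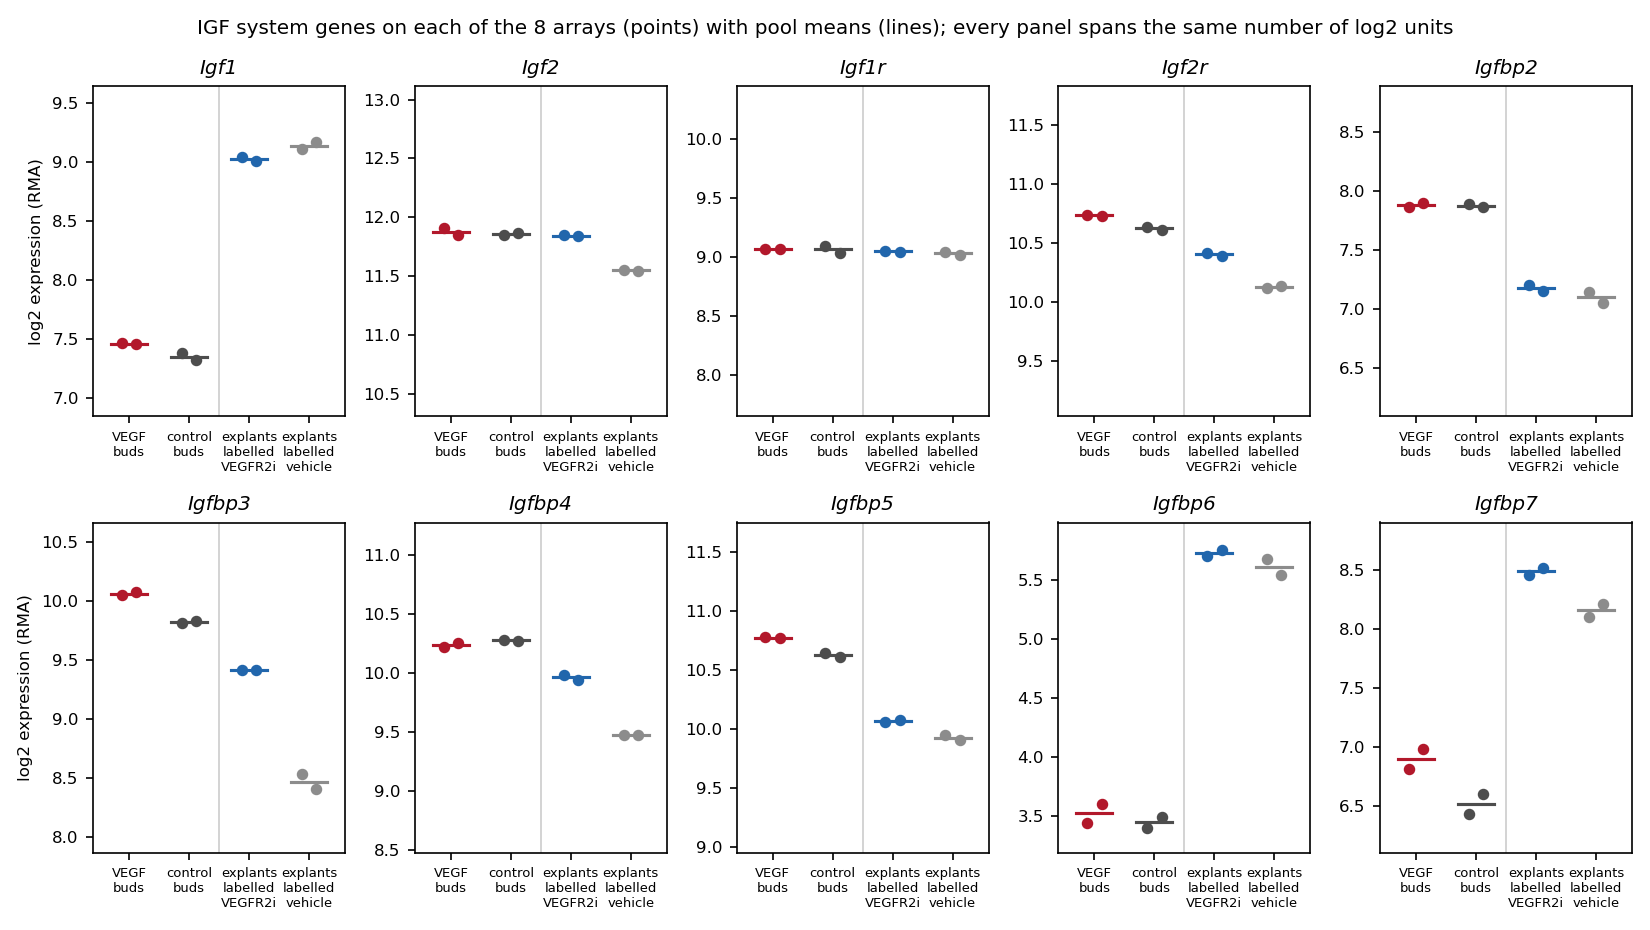
Log2 expression (RMA) of the 10 genes on each array, with points for the 2 arrays of a pool and lines for the pool mean; every panel spans the same number of log2 units but is centred on its own gene. Igf1, Igfbp6 and Igfbp7 sit higher in both explant pools than in both bud pools, Igf1, Igf2r, Igfbp3, Igfbp4, Igfbp5 and Igfbp7 have no overlap between any of the 4 pools, and Igf1r stays between 9.02 and 9.09.

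The first comparison set the fresh VEGF buds against the fresh control buds. None of the 10 IGF system genes was higher or lower in VEGF buds by the rule of size, which 1.48% of all genes met. Igfbp7 and Igfbp3 had the largest differences, both towards VEGF buds and both below 1.5-fold. The ligand Igf2, the receptor Igf1r and the binding proteins Igfbp2 and Igfbp6 had overlapping arrays in the fresh pools.

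Among the ligands, Igf1 was at 7.46 and 7.45 in VEGF buds and 7.38 and 7.32 in control buds, a difference of 0.11 [0.08, 0.14]. Igf2 was at 11.91 and 11.85 in VEGF buds, against 11.85 and 11.87 in control buds, a difference of 0.02 [-0.02, 0.06]. The Igf1 arrays of the pools did not overlap and the Igf2 arrays did. Igf1r was at 9.07 and 9.06 in VEGF buds and 9.09 and 9.03 in control buds, a difference of 0.004. Igf2r, the receptor that clears IGF2, was at 10.74 and 10.73 against 10.64 and 10.61 in control buds, a difference of 0.11 [0.09, 0.13].

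Among the binding proteins, Igfbp7 was at 6.81 and 6.98 in VEGF buds and 6.43 and 6.60 in control buds. Its difference was 0.38 [0.21, 0.55], or 1.30-fold, and its arrays were also the most spread of the members in the fresh pools, with SDs of 0.12 in each. Igfbp3, the main carrier of IGFs in serum, was at 10.05 and 10.08 in VEGF buds and 9.82 and 9.84 in control buds. Its difference of 0.24 [0.21, 0.26], or 1.18-fold, was several times the gap between arrays of a pool and far from the rule of size. Igfbp5, which binds to matrix, differed by 0.15 [0.13, 0.17], at 10.78 and 10.77 in VEGF buds and 10.65 and 10.61 in control buds. Igfbp4, an inhibitor of IGF action in culture, was at 10.22 and 10.25 in VEGF buds and 10.29 and 10.28 in control buds, a difference of -0.04 [-0.07, -0.02].

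Counting arrays alone, 5 members lay higher in VEGF buds on both arrays (Igf1, Igf2r, Igfbp3, Igfbp5 and Igfbp7) and 1 lay lower (Igfbp4). Of all genes, 23.7% lay higher in this way and 21.6% lower. The members' median difference was 0.09, against 0.0031 over all genes.

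Markers of cell types differed between the fresh pools, and their part in the members' values was not tested. Of 10 endothelial markers 2 were higher in VEGF buds and none lower, with a median difference of 0.53 and a summed linear signal of 3978 to 4039 in VEGF buds and 2720 to 2739 in control buds. Mesothelial markers had 5 of 7 members higher and a sum of 956 to 973 in VEGF buds, against 628 to 643 in control buds. Mesenchymal markers, with 1 of 10 higher and 1 lower, summed to 9378 to 9395 in VEGF buds and 8998 to 9048 in control buds. Mural markers, with 1 of 8 higher (Mcam) and a median difference of 0.12, summed to 3418 to 3469 and 2848 to 2878 in these pools. Acta2 (0.57), Tagln (0.58) and Mcam (0.59) differed most, while the arrays of Rgs5, Cspg4, Abcc9 and Myh11 overlapped. Liver markers had 4 of 8 measured members higher and 1 lower, and Alb, the albumin gene, was at 7.14 and 7.05 in VEGF buds and 4.80 and 4.65 in control buds. Epithelial markers had 5 of 10 members lower and a sum of 3438 to 3585 in VEGF buds, against 5216 to 5248 in control buds. All 8 endocrine markers were lower in VEGF buds, with a median difference of -1.71 and a sum of 2133 to 2231, against 5897 to 5924 in control buds. Acinar markers had 5 of 8 members lower, at 2147 to 2245 in VEGF buds and 4481 to 4494 in control buds. Erythroid markers had 5 of 7 measured members higher, at 8350 to 8462 in VEGF buds and 5622 to 5756 in control buds. Hbb-y, the brightest of them, differed by 0.38 and did not meet the rule. No leukocyte marker met the rule. In bulk RNA, fewer cells of a type and less RNA per cell cannot be told apart. No marker is at 0, since RMA values have a floor above it.

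**Figure D2:**
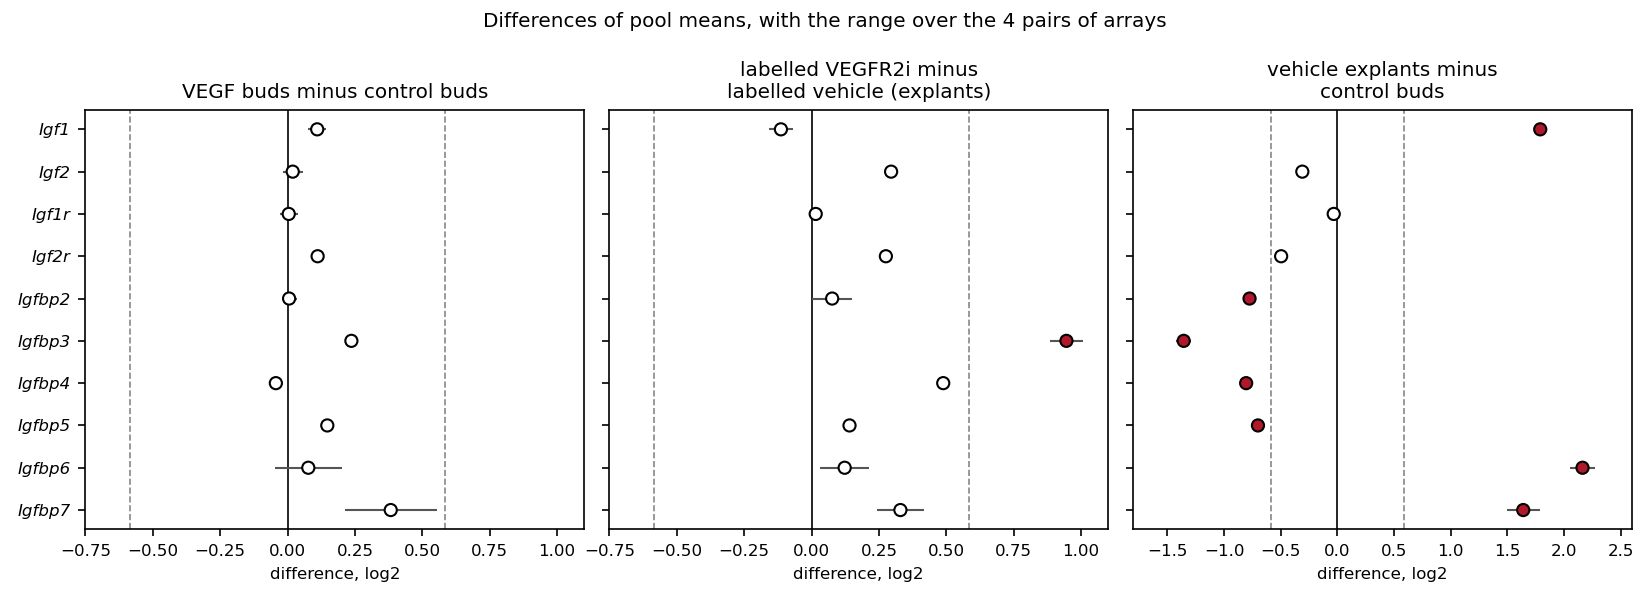
Differences of pool means (points, log2) with the range over the 4 pairs of arrays (bars), filled where the rule of size was met and with dashed lines at 1.5-fold; the right panel has a wider axis. No gene is filled for VEGF against control buds, Igfbp3 alone is filled between the explant pools, and 7 genes are filled for vehicle explants against control buds.

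The second comparison was between the cultured buds. Igfbp3 was the 1 member of 10 that met the rule of size and was 1.93-fold higher in the pool labelled VEGFR2i than in the pool labelled vehicle. In this comparison 2.19% of all genes met the rule in either direction and 1.82% were higher. Igfbp4, Igfbp7, Igf2 and Igf2r were 1.21-fold to 1.40-fold higher, short of that size. Igf1 leaned the other way and Igf1r overlapped.

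Igfbp3 was at 9.42 on both arrays labelled VEGFR2i, against 8.53 and 8.41 on those labelled vehicle, a difference of 0.95 [0.88, 1.01]. Of all 19938 genes, 138 had a larger difference in this direction. Igfbp4 was at 9.98 and 9.95 in the pool labelled VEGFR2i and 9.48 on both arrays labelled vehicle, a difference of 0.49 [0.47, 0.51] or 1.40-fold. Igfbp7 was at 8.46 and 8.52, against 8.10 and 8.21 in the pool labelled vehicle, and differed by 0.33 [0.24, 0.42].

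The other binding proteins differed less, by 0.14 [0.12, 0.17] for Igfbp5, 0.12 [0.03, 0.21] for Igfbp6 and 0.08 [0.002, 0.15] for Igfbp2. The last of these ranges nearly touches 0. The ligands differed in opposite senses. Igf2 was at 11.85 and 11.84 in the pool labelled VEGFR2i, against 11.55 on both arrays labelled vehicle, a difference of 0.30 [0.29, 0.30] or 1.23-fold. Igf1 was at 9.04 and 9.01 in the pool labelled VEGFR2i, against 9.11 and 9.17 in the pool labelled vehicle, and differed by -0.11 [-0.16, -0.07]. Of the receptors, Igf2r was at 10.41 and 10.39 against 10.12 and 10.13, a difference of 0.28 [0.26, 0.29], and Igf1r was at 9.05 and 9.04 against 9.05 and 9.02, with overlapping arrays.

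By arrays alone, 8 members lay higher in the pool labelled VEGFR2i, all but Igf1 and Igf1r, and Igf1 lay lower. Of all genes, 25.9% lay higher in this way and 25% lower. The members' median difference was 0.21, against -0.0044 over all genes. These genes share the same 2 pools, so their directions are not independent of each other.

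The same pools differed in cell type markers. All 10 endothelial markers were higher in the pool labelled VEGFR2i, with a median difference of 2.86 and a summed linear signal of 1934 to 1990, against 320 to 327 in the pool labelled vehicle. Mural markers, of cells that wrap vessels, had 7 of 8 members higher and a sum of 6493 to 6594, against 3917 to 3959 in the pool labelled vehicle. All 6 leukocyte markers were higher, at a sum of 585 to 601 against 262 to 263. Mesenchymal markers had 2 of 10 members higher (median 0.25), and Col1a1, a collagen gene of mesenchyme, differed by 0.12. By arrays alone all 10 mesenchymal markers lay higher, as did every endothelial, mural and leukocyte marker. In the same way 8 of 10 epithelial and all 8 acinar markers lay lower, and the other lists were mixed. Acinar markers had 4 of 8 members lower, at a sum of 22523 to 22887 against 28347 to 28866, and erythroid markers 2 of 7 higher, at 1226 to 1256 against 357 to 365. No epithelial, endocrine, mesothelial or liver marker met the rule. The part of these markers in the Igfbp3 value was not tested.

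The genes whose pattern over the 8 arrays was most like that of Igfbp3 were Gucy1a1, Dab2 and Shisa3, with root mean square differences of 0.040, 0.062 and 0.087 on the log2 scale after each gene was centred on its mean. Gucy1a1 encodes a subunit of the nitric oxide receptor and was at 7.68 and 7.73 in the pool labelled VEGFR2i, against 6.78 and 6.75 in the pool labelled vehicle. The endocytic adaptor gene Dab2 was at 8.97 and 8.96 against 8.02 and 8.04. These genes were picked by likeness over all 4 pools, so their agreement is a description.

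**Figure D3:**
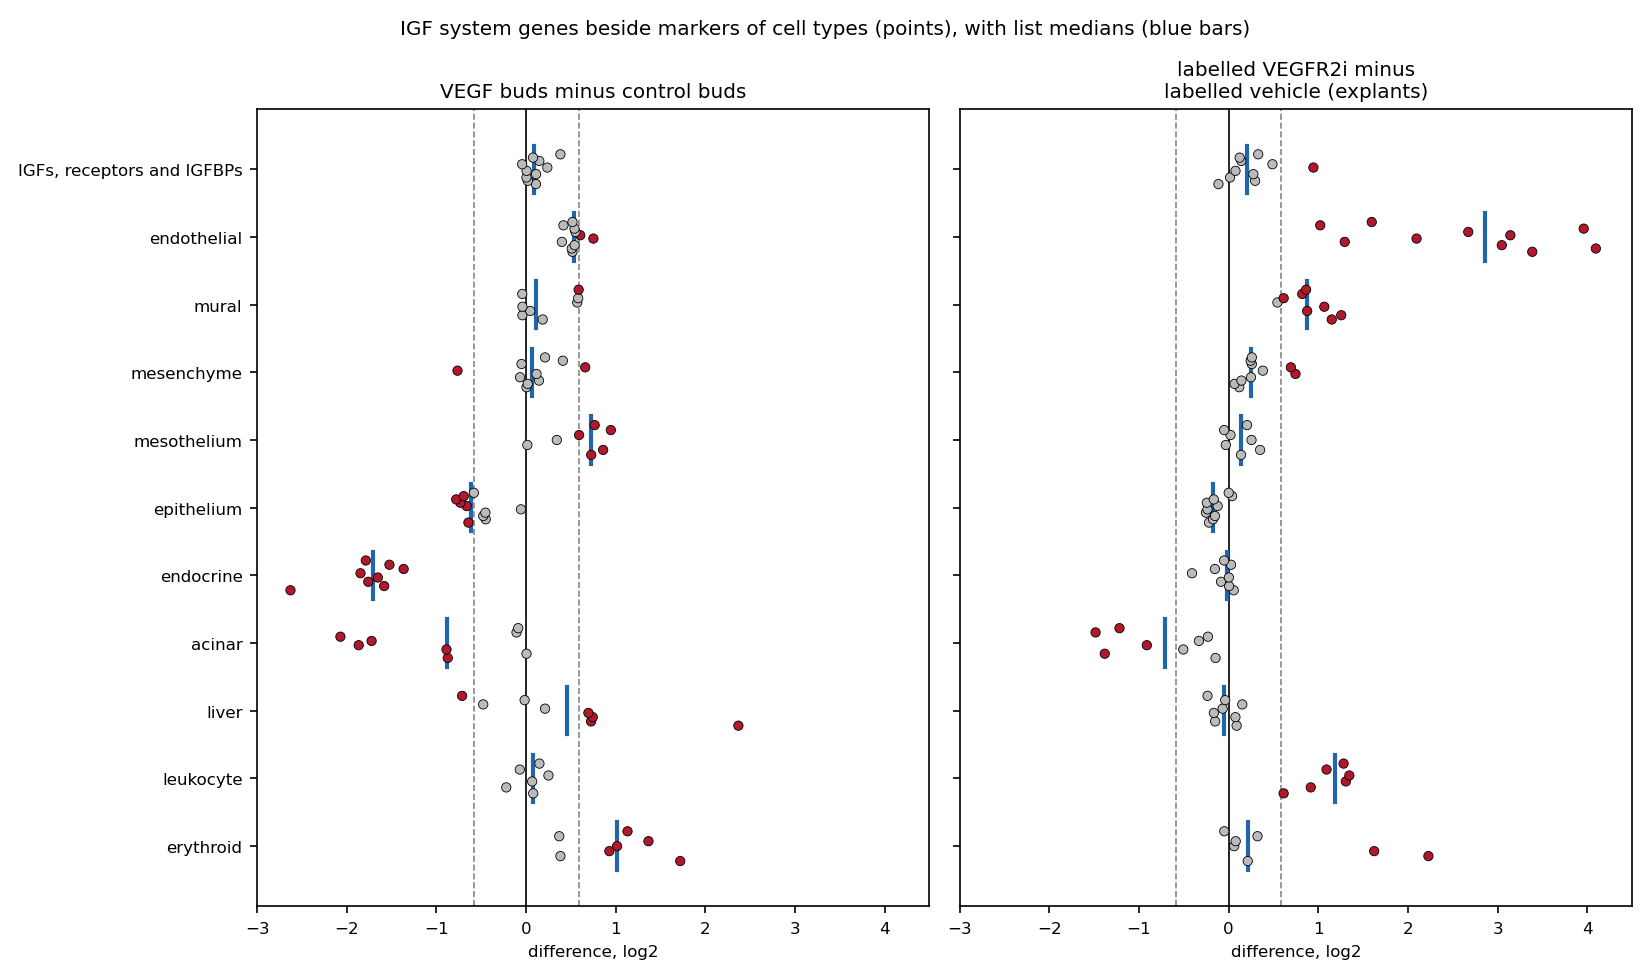
Differences (log2) of the IGF system genes and of the members of each marker list (points, filled red where the rule of size was met) with list medians (blue bars), for VEGF against control buds (left) and the explants labelled VEGFR2i against vehicle (right). The IGF system genes centre near 0.09 and 0.21, while endothelial markers centre at 0.53 and 2.86.

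Levels were then set across fresh and cultured buds, from the pool labelled vehicle and the control buds. Culture, 2 days of time, genotype and possibly the normalization run differ together here and cannot be told apart. These pools also served in the comparisons above. The binding proteins divided: Igfbp6 and Igfbp7 were higher in the explants, and Igfbp2, Igfbp3, Igfbp4 and Igfbp5 were lower. Of the ligands, Igf1 was higher and Igf2 did not meet the rule of size, nor did either receptor. In all 7 of 10 members met the rule, 3 higher and 4 lower, where 22% of all genes did, 17.9% higher and 4.08% lower. The median difference over all genes was 0.17. Centring each array on its median moved it to -0.04 and moved every member by the same amount; the share of higher genes among those past the rule was then 64.0% in place of 81.5%.

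Igf1 was at 9.11 and 9.17 in vehicle explants and 7.38 and 7.32 in control buds, a difference of 1.79 [1.73, 1.85] or 3.46-fold. Igfbp6, a binding protein that prefers IGF2, was at 5.67 and 5.54 in vehicle explants and 3.40 and 3.49 in control buds, a difference of 2.16 [2.05, 2.28]. The bud values of Igfbp6 lie below the array medians of 4.08 to 4.12, at the dim end of the range, where RMA compresses differences. Igfbp7 was at 8.10 and 8.21 in vehicle explants, against 6.43 and 6.60 in control buds, a difference of 1.64 [1.497, 1.78]. With arrays centred on their medians these differences were 1.58, 1.95 and 1.43. The pool labelled VEGFR2i also lay above both bud pools for each of these genes.

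Igfbp3 had the largest decrease of the members, at 8.53 and 8.41 in vehicle explants and 9.82 and 9.84 in control buds, a difference of -1.36 [-1.42, -1.29] or 2.56-fold lower. Igfbp4 differed by -0.80 [-0.81, -0.80], Igfbp2 by -0.77 [-0.83, -0.72] and Igfbp5 by -0.70 [-0.74, -0.66]. The pool labelled VEGFR2i averaged 9.42 for Igfbp3, 9.96 for Igfbp4, 7.17 for Igfbp2 and 10.07 for Igfbp5, between the vehicle explants and the control buds in each case. Igfbp3, Igfbp5 and Igf2r each had 4 levels with no overlap of arrays, highest in VEGF buds, then in control buds, in explants labelled VEGFR2i and in explants labelled vehicle. The arrays of Igf1, Igfbp4 and Igfbp7 also fell into 4 separate levels, in other orders. Igf2r differed by -0.50 [-0.52, -0.48] between vehicle explants and control buds and met the rule only with centred arrays, at -0.71. Igf2 differed by -0.31 [-0.32, -0.30], and -0.52 with centred arrays.

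Igf1r was the steadiest member, with all 8 arrays between 9.02 and 9.09. Its range of 0.077 was wider than that of 68 of 19938 genes, or 0.341%. The steadiness across fresh and cultured buds rests on the scaling, since the difference between vehicle explants and control buds was -0.03 as deposited and -0.25 with centred arrays. Ranges over the 8 arrays were 0.36 for Igf2, 0.62 for Igf2r, 0.81 to 0.87 for Igfbp4, Igfbp2 and Igfbp5, and 1.67 to 2.36 for Igfbp3, Igf1, Igfbp7 and Igfbp6.

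Between vehicle explants and control buds, 10 of 10 endothelial markers were lower, at a summed signal of 320 to 327 in vehicle explants against 2720 to 2739 in control buds. Epithelial markers had 8 of 10 members higher, at 12972 to 13211 against 5216 to 5248, and all 8 acinar markers were higher, at 28347 to 28866 against 4481 to 4494. Endocrine markers had 7 of 8 members higher, all but their brightest, Gcg (-0.05). Endocrine sums were 9347 to 9398 in vehicle explants and 5897 to 5924 in control buds. Blood cell markers went the other way, with 4 of 6 leukocyte markers lower (262 to 263 against 898 to 917) and 5 of 7 erythroid markers lower and 1 higher (357 to 365 against 5622 to 5756). Mural markers divided, with 3 of 8 members higher and 4 lower, and sums of 3917 to 3959 in vehicle explants and 2848 to 2878 in control buds. The higher ones were Acta2 (1.98), Tagln (2.37) and Myh11 (2.78). Pdgfrb (-1.08), Rgs5 (-1.58), Cspg4 (-1.24) and Abcc9 (-1.69) were lower, so the larger sum does not stand for the whole list. Mesothelial markers had 2 of 7 higher and 1 lower, and liver markers 2 of 8 higher and 3 lower. Mesenchymal markers had 4 lower members of 10 and 0 higher ones, a median of -0.07, and sums of 10313 to 10598 in vehicle explants and 8998 to 9048 in control buds. These marker counts and sums are as deposited, without centring. The part of these markers in the members' values was not tested.

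Of 53 other genes of the pathway, 47 had a singly named probe set, and the others were not analysed here. In VEGF buds 1 of the 47 was higher (Esm1) and 1 lower (Htra1), and in the pool labelled VEGFR2i 4 were higher (Esm1, Kazald1, Stc1 and Crim1) and 1 lower (Ccn3). Over all genes 1.48% and 2.19% met the rule in these comparisons. The medians were -0.00063 and 0.08, against 0.0031 and -0.0044 over all genes.

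Partners and proteases of the binding proteins come first. Htra1, a secreted serine protease that cleaves binding proteins, was at 5.80 and 5.75 in VEGF buds and 6.43 and 6.35 in control buds, a difference of -0.62, which became -0.58 and missed the rule without control array 1. Stc1, an inhibitor of the protease PAPP-A, was at 5.20 and 5.29 in the pool labelled VEGFR2i and 4.35 and 4.26 in that labelled vehicle, or 0.94 apart. Pappa, which encodes PAPP-A, the protease of IGFBP4, differed by 0.01 in the fresh buds and by 0.18 in the explants, and was at 6.53 and 6.41 in vehicle explants against 4.27 and 4.23 in control buds. Igfbp1, Igfals and Pappa2 stayed at or below 4.28 on every array, at the dim end of the range.

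Several secreted proteins share the IGF-binding type of domain without being classical carriers. Esm1, an endothelial proteoglycan, was at 5.53 and 5.35 in VEGF buds and 3.68 and 3.70 in control buds, and at 6.90 and 6.79 in the pool labelled VEGFR2i against 3.72 and 3.59 in the pool labelled vehicle. Kazald1 differed by 0.97 between the explant pools and Crim1, a transmembrane protein that binds BMPs, by 0.70. Ccn3 was at 6.01 and 5.98 in the pool labelled VEGFR2i, against 6.76 and 6.87 in the pool labelled vehicle, and differed by -0.82. The medians of these 8 genes were 0.41 in the fresh buds and 0.50 in the explants.

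Insulin and receptor genes, with 3 of 4 measured, had no member past the rule in either comparison. Ins2, which lies next to Igf2 on the chromosome, was at 3.36 and 3.39 in VEGF buds and 3.48 and 3.47 in control buds, and at 8.49 and 8.51 in the pool labelled VEGFR2i against 8.80 and 8.86 in the pool labelled vehicle. Insr, the insulin receptor gene, differed by -0.01 and 0.11. None of 18 measured genes of intracellular signalling passed the rule in either comparison, and their differences ran from -0.36 to 0.18 in the fresh buds and from -0.24 to 0.24 in the explants. Grb10, an imprinted adaptor that restrains IGF1R signalling, lay between 11.35 and 11.44 on all arrays.

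Genes of Igf2 mRNA binding and imprinted growth control, 10 measured of 12, likewise had none past the rule in either comparison. In the explants 9 of the 10 had positive differences, with a median of 0.17. Mest differed by 0.33, the transcription factor gene Plagl1 by 0.28 and the cell cycle inhibitor gene Cdkn1c by 0.26, beside 0.30 for Igf2. Both arrays labelled VEGFR2i lay above both labelled vehicle for the same number of genes, 9 of 10, where 25.9% of all genes did. The pattern is not particular to this list: mesenchymal markers lay so in 10 of 10, with a median of 0.25, and acinar markers in 0 of 8. Igf2bp1, an RNA-binding protein gene named for Igf2 mRNA, was at 7.93 and 7.97 in vehicle explants and 9.19 on both control arrays.

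Between vehicle explants and control buds, 12 of the 47 pathway genes were higher and 5 lower, where 17.9% of all genes were higher and 4.08% lower. Among partners and proteases the higher genes were Pappa (2.22), Igfbpl1 (1.79), Stc2 (1.55), Htra1 (1.34) and Pappa2 (0.75). The IGF-binding domain genes divided, with Ccn3 (3.52), Ccn2 (1.24) and Ccn1 (1.06) higher and Kazald1 (-0.96), Ccn4 (-0.91) and Crim1 (-0.72) lower. Ins2 (5.36) and the insulin receptor-related gene Insrr (2.18) were higher, as were the signalling kinase genes Pik3cb (0.89) and Pdpk1 (0.66). Igf2bp1 (-1.24) and Plagl1 (-1.05) were lower. Values in parentheses are log2 differences. The part of culture, time, genotype, cell makeup and possibly the normalization run in them cannot be told apart. These counts and values are as deposited, without centring. Centring moved the median difference over all genes from 0.17 to -0.04. It moves the difference of every gene by the same amount, as for Igf1 from 1.79 to 1.58. With that shift the higher calls nearest the rule of size, Pdpk1 (0.66) and Pappa2 (0.75), fall short of it. Mest (-0.49), Zim1 (-0.44) and Irs4 (-0.38), short of the rule as deposited, then count as lower. The split of 12 higher and 5 lower therefore rests on the scaling.

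**Figure D4:**
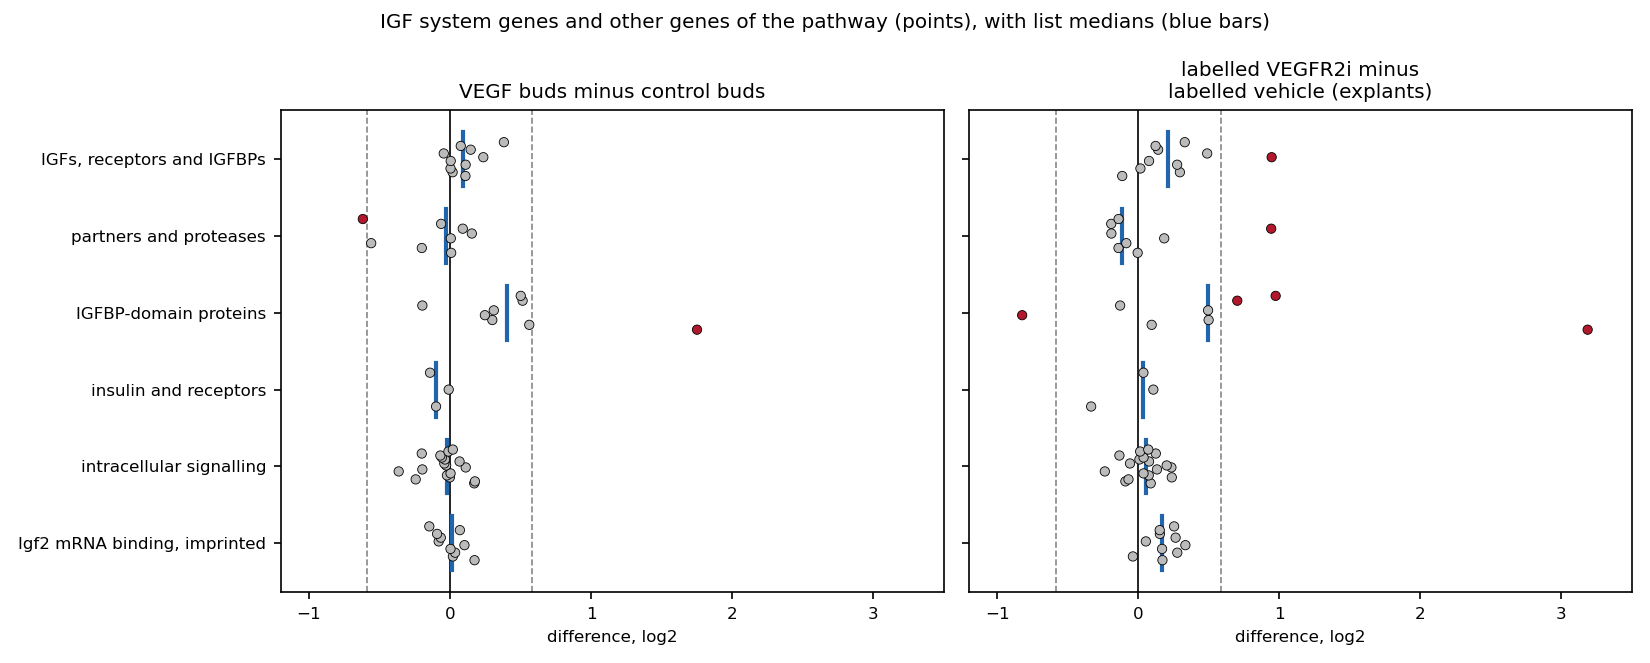
Differences (log2) of the 10 IGF system genes and of 5 lists of other pathway genes (points, filled red where the rule of size was met) with list medians (blue bars), for VEGF against control buds (left) and the explants labelled VEGFR2i against vehicle (right). Esm1 is the point farthest to the right in both panels, at 1.75 and 3.19, and signalling genes lie between -0.36 and 0.24.

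Other transcripts at the members' loci were set beside them, chosen for their place and not for their values. Airn, the imprinted RNA antisense to Igf2r, was at 7.85 and 7.71 in VEGF buds and 8.15 and 7.90 in control buds, and its arrays overlapped between the explant pools, at 7.64 and 7.69 against 7.59 and 7.71. Igf2r itself differed by 0.28 there. Igf1os, a transcript named as opposite to Igf1, stayed between 2.80 and 2.94 on all arrays, and the hairpin gene Mir483, which lies within Igf2, between 4.95 and 5.34. Igfbp2 and Igfbp5 are next to each other on chromosome 1, Igfbp3 is next to Igfbp1 on chromosome 11, and a tensin gene lies within 2 protein-coding genes of Igfbp3, Igfbp4, Igfbp5 and Igfbp6. The neighbour Tns3 differed by 0.13 between the explant pools, against 0.95 for Igfbp3, while Tns2, near Igfbp6, differed by 0.77, against 0.12 for Igfbp6. Tns1, near Igfbp5, differed by 0.31, against 0.14 for Igfbp5. Tns4, at the dim end of the range, differed by -0.04, against 0.49 for Igfbp4.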

How the data were processed

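RNA of 4 pools was measured on 8 arrays, 2 per pool. Each deposited value is a log2 level of 1 probe set. Per the series' design text the authors ran RMA in Partek Genomic Suite 6.5, and values of 2.41 to 13.57 show the log2 scale. RMA evens out shifts between the arrays of a run and shrinks differences of dim genes. Array medians were 4.08 to 4.12 for buds and 4.29 to 4.33 for explants, so the effect of centring across the sets is given for the members and all genes. Marker lists and other pathway genes are given across the sets as deposited, and the pathway calls that centring changes are named. The sources used here do not state if both sets were normalized in 1 run.

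Of 35399 probe sets, 21789 had exactly 1 symbol in the platform annotation, 1621 had several and 11989 were unlisted. For 999 genes with several probe sets the one with the highest mean was used. Arrays of a pool are technical repeats, so no p-value for a condition was computed as a result. Limma 3.58.1 in R 4.3.3 and the methods' t-test were run as alternatives and measure hybridization error. Differences, counts and figures were computed in Python 3.11.15 with pandas 2.3.3. The rule of size was tested on simulated data. Summed signals are sums of linear (2 to the log2) values over a list, so the brightest genes of a list weigh most. Named genes were all members, pathway genes past the rule, a few markers and the 3 genes nearest to each member past the rule within the fresh buds or within the explants (Igfbp3); other pathway genes, transcripts at the members' loci, Pdx1 and Vegfa were named outside that rule. The members and lists were chosen with earlier results of these data known. Precision is limited by the single pool per condition, and within a pool by the number of arrays. Promoters came from RefSeq, GRCm38.p6, where all 10 members matched by symbol.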

Additional observations from a re-analysis of the deposited data

How the results depend on the processing

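The count of members past the rule of size was 0 for VEGF against control buds, 1 for the explants and 7 for vehicle explants against control buds. Centring each array on its median left 0 and 1 in the first 2 comparisons and gave 8 across the sets, 3 higher and 5 lower, with Igf2r added. Over all genes it moved the count across the sets from 4392 to 3548. When a 25% higher level was enough for the rule, the count of members was 1 (Igfbp7) and 3 (Igfbp3, Igfbp4 and Igfbp7) in the first 2 comparisons. At 2-fold it was 0 for the explants and 4 across the sets. After Benjamini-Hochberg adjustment the methods' t-test left 0 members in the explants, against 1 unadjusted and 1 by limma. For VEGF against control buds it gave 0 unadjusted and adjusted, as did limma. Pathway genes past the rule, 2 and 5 in the main setting, numbered 7 and 9 at 25%, 1 and 1 at 2-fold, and 0 and 0 by the adjusted t-test. Among genes with a mean of at least 5 they numbered 1 and 4. That setting dropped the dim Esm1 in the fresh buds, which left Htra1, and Stc1 in the explants. Over all genes the counts of 296, 437 and 4392 became 1030, 1254 and 8120 at 25% and 50, 133 and 1914 at 2-fold, and the adjusted t-test gave 0 and 1 in the first 2 comparisons, against 271 and 405 unadjusted. Leaving out 1 array at a time gave 0 members for the fresh buds, 1 for the explants (Igfbp3, with differences of 0.89 to 1.01) and 7 across the sets. It gave 2 to 3 and 5 to 6 pathway genes, with Htra1 lost without control array 1 (-0.58), Ccn1 gained there (0.66), Igfbpl1 gained without VEGF array 2 (-0.70) or control array 2 (-0.61), Kazald1 gained without VEGF array 1 (0.63) and Ccn4 gained without array 2 labelled VEGFR2i (0.59). Among the values of single members, 4 changed sign under some alternative for VEGF against control buds (Igf1r, Igf2, Igfbp2 and Igfbp6), none of which met the rule, and no member changed sign in the other comparisons. With 1 pool per condition, none of these settings measures variation between embryos.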
